A study of Homo sapiens with 8 samples.

Results

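This account covers 10 genes of the activator protein 1 (AP-1) and early growth response (EGR) families of transcription factors, out of 40693 gene symbols measured. They are the 4 FOS genes (FOS, FOSB, FOSL1, FOSL2), the 3 JUN genes (JUN, JUNB, JUND) and 3 EGR genes (EGR1, EGR2, EGR3), found by symbol, with 1 entry each. RNA sequencing was run on total RNA of SW480 and SW620, established human colorectal adenocarcinoma lines labelled Dukes' type B and Dukes' type C. There was 1 library of untreated SW480 and 1 of untreated SW620. Another 3 libraries came from SW620 cells that carried a hairpin RNA to knock down FOXA2, a pioneer factor of endoderm and liver (shFOXA2), and 3 that carried a control hairpin in its place (shNC). Both hairpin groups carried a lentiviral vector in which a U6 promoter drives the hairpin beside puromycin resistance and mCherry, and both were kept as stable populations under puromycin. The shFOXA2 titles point to the first of the hairpins described, so the group stands for 1 hairpin sequence.

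AP-1 is a dimer of basic leucine zipper proteins. JUN proteins pair with each other or with FOS proteins, whereas FOS proteins need a JUN partner, so the balance of both families sets which dimers can form. EGR proteins bind GC-rich DNA through zinc fingers. Many of these genes are immediate early genes, which growth factors switch on through ERK signalling and serum response factor (SRF) without new protein synthesis. FOSL1 is known as a marker of sustained ERK signalling in colorectal cancer cells. The cells were grown in serum, and the sources used here do not give the time between feeding and harvest.

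Total counts ran from 7478411 to 95935348, and the untreated libraries were several times deeper than the hairpin libraries. Mitochondrial genes took 11.1% to 11.7% of counts in the untreated and 4.46% to 4.82% in the hairpin libraries. Comparisons were therefore made within the untreated pair or within the hairpin set, and levels across them are only set side by side. FOXA2 stood at 51.1 ± 1.86 CPM (counts scaled to sequencing depth; SD, n = 3) in shNC and 27.3 ± 4.40 in shFOXA2 (n = 3), which edgeR gave as -0.91 on the log2 scale (SE 0.09, edgeR adjusted p = 6.88e-10). Of the colon epithelium markers, 8 of 8 had counts in every group, with a summed level of 8155 to 8907 CPM in shNC and 8256 to 8691 CPM in shFOXA2. The 6 fibroblast markers summed to 11.004 to 12.611 CPM in shNC and 16.2 to 21.2 CPM in shFOXA2, with COL1A2 and COL3A1 at 0 in all 8 libraries. COL1A1 (log2 fold change 1.06, edgeR adjusted p = 0.00045) and LUM (0.53, edgeR adjusted p = 0.0011) were called higher in shFOXA2. DCN and PDGFRB did not pass the filter on low counts. The 5 leukocyte markers summed to 5.85 to 8.41 CPM in shNC and 10.4 to 12.0 CPM in shFOXA2, with CD3E at 0 in the hairpin libraries. LYZ was called higher in shFOXA2 (0.85, edgeR adjusted p = 4.95e-05), and PTPRC (-0.23) and CD14 (0.57) were not called. Why these markers differed was not tested. The 2 endothelial markers stayed at or below 1.09 CPM. Over all genes, replicate 1 stood apart in both hairpin groups, with a chi-square per degree of freedom of 3.98 and 4.61 against the other shFOXA2 libraries (1.67 between those) and of 4.42 and 4.34 against the other shNC libraries (1.75 between those). Some genes, picked after they were seen, were high in a replicate 1 library only. In shNC replicates 1 to 3, PTPRC had 3.27, 0.693 and 0.977 CPM and GJA1 10.6, 0.385 and 0.407 CPM. In shFOXA2 replicates 1 to 3, PDGFRB had 3.35, 0.543 and 0.501 CPM and CTGF 74.2, 10.6 and 11.2 CPM. The source of these values was not tested. Without both replicates 1, 7 members were called higher and 3 lower, the third being JUNB (adjusted p = 1.57e-05). In bulk RNA, fewer cells that express a gene and less RNA per cell cannot be told apart. The labels give no separate cultures behind the 3 libraries of a group, so p-values measure the spread between these libraries only.

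The promoters of these genes carry known entry points for signalling, and stretches of 6 are shown to display where matches to known sites lie. RefSeq promoter windows (GRCh38.p14, 250 bases before to 50 after the start site) were used for 8 of the 10 members. Each was searched on both strands for the CArG box bound by SRF, the cyclic AMP response element TGACGTCA and its shorter core TGACG, the AP-1 site TGANTCA, the JUN-type variant TGACATCA, the EGR site GCGNGGGCG and the forkhead core TGTTTAC. Each line is a stretch of the window and not the whole of it. Capitals mark these matches, and TGACGTCA contains the shorter core on each strand. The lines give EGR1 (chr5:138465271-138465427, plus strand), EGR2 (chr10:62816406-62816486, minus strand), FOS (chr14:75278754-75278773, plus strand), JUN (chr1:58784096-58784125, minus strand), JUNB (chr19:12791310-12791363, plus strand) and JUND (chr19:18281694-18281832, minus strand), each read 5′ to 3′ along the gene.
EGR1: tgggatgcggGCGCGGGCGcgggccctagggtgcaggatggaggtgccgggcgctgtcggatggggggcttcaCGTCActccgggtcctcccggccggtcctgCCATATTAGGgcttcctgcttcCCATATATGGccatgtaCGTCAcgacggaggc
EGR2: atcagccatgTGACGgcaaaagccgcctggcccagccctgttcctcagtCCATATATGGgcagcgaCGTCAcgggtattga
FOS: gttgagcccgTGACGtttac
JUN: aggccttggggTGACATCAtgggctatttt
JUNB: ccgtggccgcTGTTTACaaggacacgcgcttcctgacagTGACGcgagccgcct
JUND: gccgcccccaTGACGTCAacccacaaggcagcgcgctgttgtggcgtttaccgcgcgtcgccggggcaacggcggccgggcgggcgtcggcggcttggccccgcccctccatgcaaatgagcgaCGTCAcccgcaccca

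Over the whole windows, a TGACG core was present in 8 of 8 members, against 24.6% of 35116 windows of the same length. That of JUN lies at bases -123 to -119 from the RefSeq start, outside the stretch shown, which falls within the JUN gene as GENCODE draws it. The core occurred both in members that rose and in members that fell. The CArG box was found in 2 of 8, EGR1 with 2 matches and EGR2 with 1, against 1.29% of all windows. In EGR1 and EGR2 a CArG box and a TGACG core lay close together, just upstream of the start site of the window used. EGR2 had 3 windows, of which that nearest the start of its first-listed GENCODE transcript was used. Its stretch also falls within the EGR2 gene as GENCODE draws it. JUND held TGACGTCA (1.85% of all windows), JUN held TGACATCA (2.61%), FOSL2 held TGANTCA (7.71%), EGR1 held GCGNGGGCG (9.43%) and JUNB held TGTTTAC (3.42%). These are matches of letters in a short window and show no binding. Bases further upstream were not searched, so a member without a match here may still carry that site outside its window.

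The hairpin libraries were compared to ask how lower FOXA2 went with the levels of these factors in SW620. The FOS and EGR genes were higher with the FOXA2 hairpin. All 4 FOS genes and all 3 EGR genes rose, by 1.47-fold to 2.07-fold. JUND fell 1.73-fold and JUN, also called, 1.12-fold. JUNB was lower in every shFOXA2 library but did not pass the test. All 10 members passed the filter on low counts. By edgeR, 7 of 10 members were called higher, where 19.2% of 16100 tested genes were. Only 2 of 10 were called lower, near the 19.8% of tested genes. The hairpin groups did not overlap for 10 of 10 members, where 48.7% of tested genes showed no overlap. A two-sided exact permutation test gave p = 0.1 for each member, the smallest value that 3 libraries against 3 allow.

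**Figure D1:**
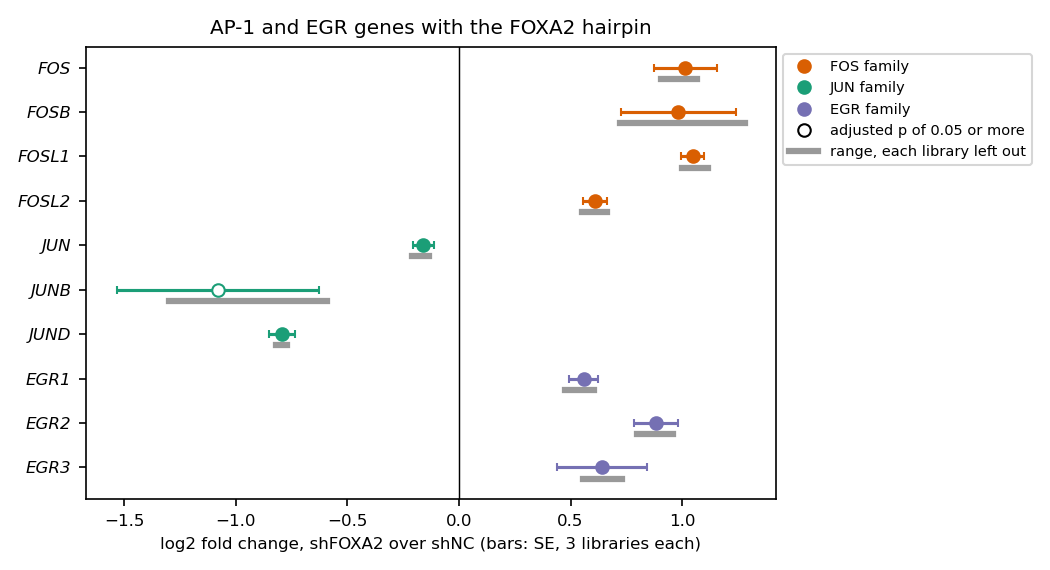
Log2 fold change of each member, shFOXA2 over shNC, with its SE from edgeR (3 libraries a group); filled points have an adjusted p under 0.05 and grey bars give the range when each library is left out in turn. The 7 FOS and EGR genes lie between 0.56 and 1.05, all above 0, and the 3 JUN genes lie below 0.

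FOSL1 (FRA-1; chromosome 11 from 65892049 to 65900573, minus strand, GRCh38) encodes a FOS protein without the strong activation domain of FOS. Its level was 81.5, 81.3 and 79.9 CPM in shNC replicates 1 to 3 and 151, 179 and 173 CPM in shFOXA2 replicates 1 to 3. The lowest shFOXA2 library was thus well above the highest shNC library, and the shNC libraries were nearly equal. The fold change was 2.07, with a log2 fold change of 1.05 (SE 0.05, edgeR adjusted p = 4.64e-19), and 1.62% of tested genes had a larger one. FOSL2 (FRA-2; chromosome 2 from 28392448 to 28417312, plus strand), the closest relative of FOSL1, went from 67.2, 77.2 and 71.6 CPM to 104, 112 and 115 CPM. It rose 1.53-fold, with a log2 fold change of 0.61 (SE 0.05, edgeR adjusted p = 1.77e-12).

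FOS (chromosome 14 from 75278774 to 75282230, plus strand), the founding member and a textbook immediate early gene, was far less abundant. It had 6.93, 6.93 and 5.53 CPM in shNC and 14.7, 12.0 and 12.3 CPM in shFOXA2, from 68 to 176 counts a library. Its log2 fold change was 1.01 (SE 0.14, edgeR adjusted p = 1.41e-07). FOSB (chromosome 19 from 45467995 to 45475179, plus strand), which is induced by the same signals, had 4.67, 10.2 and 7.49 CPM in shNC and 13.9, 14.1 and 16.3 CPM in shFOXA2. The groups stood apart, but the shNC libraries differed among themselves by over 2-fold, with replicate 1 the lowest. FOSB rose with a log2 fold change of 0.98 (SE 0.26, edgeR adjusted p = 0.0207). It did not pass when 1 of 3 libraries was removed: shFOXA2 replicate 2 gave an adjusted p of 0.0721, shFOXA2 replicate 3 gave 0.0700 and shNC replicate 3 gave 0.105. The annotated ERCC1 gene spans FOSB on the opposite strand, and it is not stated whether counting used strand. ERCC1 had 525 to 961 counts in the hairpin libraries against 60 to 166 for FOSB.

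EGR1 (chromosome 5 from 138465490 to 138469315, plus strand) held a pair of CArG boxes in the window searched. Its level was 43.1, 46.3 and 45.6 CPM in shNC and 64.6, 61.0 and 72.8 CPM in shFOXA2. It rose 1.47-fold, with a log2 fold change of 0.56 (SE 0.07, edgeR adjusted p = 2.32e-09). EGR2 (chromosome 10 from 62811996 to 62919900, minus strand), best known from myelinating Schwann cells and lymphocytes, went from 16.8, 14.9 and 13.3 CPM to 27.0, 25.4 and 30.5 CPM. Every shFOXA2 library was above every shNC library. EGR2 rose 1.84-fold, with a log2 fold change of 0.88 (SE 0.10, edgeR adjusted p = 8.54e-10). EGR3, known from lymphocytes and muscle spindles, was the scarcest member. It had 3.27, 3.08 and 3.83 CPM in shNC and 5.44, 4.48 and 5.81 CPM in shFOXA2, from 33 to 65 counts a library. Its log2 fold change was 0.64 (SE 0.20, edgeR adjusted p = 0.00958), and it did not pass when shFOXA2 replicate 3 was removed (adjusted p = 0.0601).

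JUND (chromosome 19 from 18279760 to 18281622, minus strand) is the JUN protein found in resting cells and often opposes growth. It had 83.8, 78.4 and 77.3 CPM in shNC and 45.4, 45.6 and 47.2 CPM in shFOXA2. Both groups were tight and far apart. JUND fell 1.73-fold, with a log2 fold change of -0.79 (SE 0.06, edgeR adjusted p = 8.45e-15), and 3.12% of tested genes had a lower one. JUN (chromosome 1 from 58780788 to 58784327, minus strand), the strongest activator of the family, changed least of the called members. It went from 139.7, 152 and 149.5 CPM to 128, 131 and 136 CPM, and its log2 change was -0.16 (SE 0.05, edgeR adjusted p = 0.00635), and 29.7% of tested genes had a lower one.

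JUNB (chromosome 19 from 12791496 to 12793315, plus strand), a JUN protein with weak activation that can restrain JUN, had 52.4, 24.3 and 22.3 CPM in shNC and 15.9, 13.4 and 17.1 CPM in shFOXA2. Replicate 1 of shNC was more than 2-fold above the other shNC libraries, and all shNC libraries were above all shFOXA2 libraries. The log2 fold change was -1.08 (SE 0.45, edgeR adjusted p = 0.145). Without shNC replicate 1 the log2 fold change was -0.59 and passed (adjusted p = 9.99e-06). JUNB passed with all 6 libraries in DESeq2 (adjusted p = 0.0304) and limma-voom (adjusted p = 0.0169). The annotated HOOK2 gene covers JUNB on the opposite strand. HOOK2 had 422, 377 and 367 counts in shNC replicates 1 to 3, where JUNB had 673, 316 and 274. Reads in the bases that both genes share were not counted apart, and the part of HOOK2 in the JUNB values was not tested.

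The families also differ in gene structure. In GENCODE release 29 the first-listed transcripts of JUN, JUNB and JUND have 1 exon each. Those of the 4 FOS genes have 4 exons each and those of the 3 EGR genes have 2 exons each. The first hairpin can also pair with other messenger RNAs through short stretches of its target. Annotated 3' untranslated regions were therefore searched for 3 stretches of 7 bases, which start at bases 11, 12 and 14 of that target. None of the 3 was present in the 10 members, against 7.81% of 12498 tested genes that held at least 1. At so low a share, finding none in 10 genes cannot set the members apart from other genes. Other stretches of the target and the other strand of the hairpin were not searched, and pairing was not tested.

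Levels of different genes were compared per length, in the authors' RPKM (reads scaled by gene length in kilobases and by sequencing depth). In shNC the most abundant members were JUN at 44.3 ± 2.63 RPKM, FOSL1 at 42.9 ± 0.427 and JUND at 42.7 ± 1.19 (SD, n = 3), and the ranges of these neighbours overlapped. JUNB (18.1 ± 8.91) overlapped EGR1 (14.3 ± 0.733) and was above it in shNC replicate 1 only. Then FOSL2 (10.1 ± 0.806), EGR2 (4.06 ± 0.407) and FOS (1.99 ± 0.229) followed. FOS overlapped FOSB (1.35 ± 0.512), and EGR3 was lowest at 0.699 ± 0.0868.

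In shFOXA2 the order opened out. FOSL1 led at 88.0 ± 7.43 RPKM, above JUN at 39.3 ± 1.49 and JUND at 24.4 ± 0.642, with no overlap between these neighbours. EGR1 (20.9 ± 2.05) and FOSL2 (15.2 ± 0.815) came next, ahead of JUNB (8.46 ± 1.07), which overlapped EGR2 (7.43 ± 0.755). FOS (3.98 ± 0.463), FOSB (2.64 ± 0.255) and EGR3 (1.07 ± 0.146) remained the lowest.

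**Figure D2:**
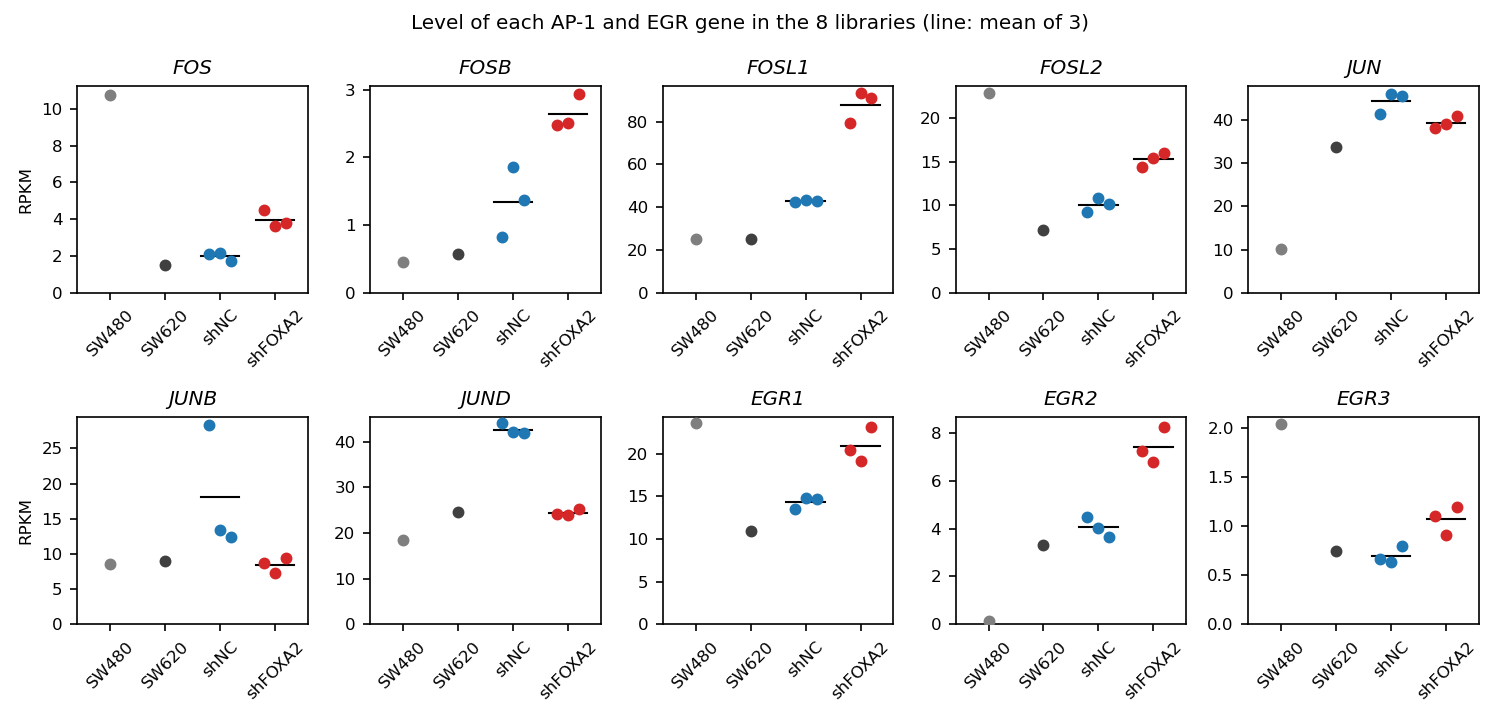
RPKM of each member (own axis from 0) in SW480 and SW620 (1 library each), shNC and shFOXA2 (3 libraries each, line at the mean). FOSL1 runs from 42.4 to 43.3 in shNC and from 79.5 to 93.3 in shFOXA2, and JUND from 41.9 to 44.0 and from 24.0 to 25.2.

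Summed over members, FOS genes reached 56.3 ± 1.77 RPKM in shNC and 109.9 ± 7.81 in shFOXA2 (n = 3 each). JUN genes reached 105 ± 7.52 in shNC and 72.2 ± 2.89 in shFOXA2, and EGR genes 19.1 ± 0.435 and 29.4 ± 2.93. The ratio of summed FOS to summed JUN RPKM was 0.480, 0.572 and 0.562 in shNC replicates 1 to 3 and 1.43, 1.63 and 1.51 in shFOXA2 replicates 1 to 3. JUN messages thus outnumbered FOS messages per length in every shNC library, and the reverse held in every shFOXA2 library. Untreated SW620 had a ratio of 0.509 and untreated SW480 a ratio of 1.60.

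Within the FOS family, FOSL1 made up 76.2% ± 1.64 of the summed RPKM in shNC and 80.1% ± 1.21 in shFOXA2, and FOSL2 made up 17.9% ± 0.886 and 13.9% ± 0.436. Neither pair of ranges overlapped. FOS itself held 3.54% ± 0.406 and 3.65% ± 0.708. JUN made up 42.4% ± 5.29 of its family in shNC and 54.5% ± 0.872 in shFOXA2, and JUND 40.7% ± 1.71 and 33.8% ± 0.459. These shares lean on the listed gene lengths. From counts without the length term, FOSL1 held 48.6% and FOSL2 43.1% of the FOS family in shNC.

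**Figure D3:**
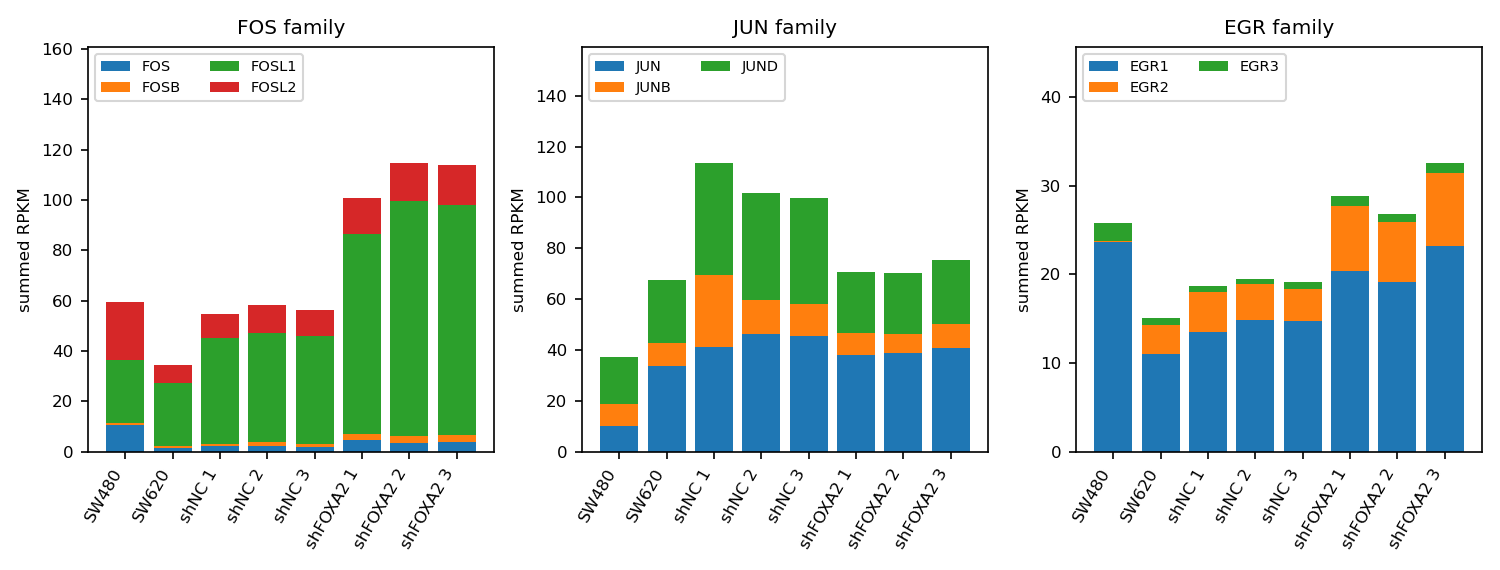
Summed RPKM of the FOS, JUN and EGR families in each of the 8 libraries, 1 bar a library, with 1 colour for each gene (axes from 0, scaled by family). The FOS bars reach 101 to 115 in shFOXA2 and 54.6 to 58.1 in shNC, and the JUN bars 70.3 to 75.5 and 99.9 to 114.

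Set beside untreated SW620, the control hairpin libraries did not hold the same levels. JUND stood at 24.7 RPKM in untreated SW620, 41.9 to 44.0 in shNC and 24.0 to 25.2 in shFOXA2. The untreated level of JUND thus lay inside the shFOXA2 range and below all shNC libraries. JUNB did the same, at 9.01 RPKM in untreated SW620 against 12.4 to 28.4 in shNC and 7.29 to 9.41 in shFOXA2. FOSL1 in untreated SW620 was also below all shNC libraries, but it lay outside the shFOXA2 range. It stood at 25.1 RPKM untreated, 42.4 to 43.3 in shNC and 79.5 to 93.3 in shFOXA2. The untreated library differed from the hairpin libraries in depth, mitochondrial share and viral transduction, and these cannot be told apart from the line's own state.

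The untreated lines were compared with 1 library each and no test. Each ratio is given with its exact 95% interval, which covers counting error only. Of the 10 members, 4 were at least 2-fold higher in SW480 (FOS, FOSL2, EGR1 and EGR3) and 2 at least 2-fold higher in SW620 (JUN and EGR2), on ratios with 1 CPM added. Of the 21343 genes that reached 20 counts in either library, 8.85% differed as much toward SW480 and 7.99% toward SW620. With nothing added, 3310 of these genes passed toward SW480 and 3418 toward SW620, and the members still numbered 4 and 2. On that scale, FOS had 35.6 CPM in SW480 and 4.84 CPM in SW620, 7.36-fold higher in SW480 (6.67 to 8.14). FOSL2 had 167 and 50.7 CPM, 3.29-fold higher (3.19 to 3.41). EGR3 was 2.81-fold higher in SW480 (2.47 to 3.21), at 10.1 and 3.597 CPM, and EGR1 was 2.22-fold higher (2.13 to 2.32), at 75.7 and 34.0 CPM.

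EGR2 was the member furthest apart between the lines, and in the opposite direction to EGR1 and EGR3. It had 40 counts in SW480 (0.564 CPM) and 1177 in SW620 (12.1 CPM), 21.4-fold higher in SW620 (15.6 to 30.2). JUN had 34.3 CPM in SW480 and 111 CPM in SW620, 3.23-fold higher (3.09 to 3.38). The remaining members lay closer. JUND was 1.29-fold higher in SW620 (1.23 to 1.36) and FOSB 1.23-fold higher (1.02 to 1.48). The intervals of FOSL1 (0.959-fold, 0.917 to 1.00) and JUNB (1.02-fold, 0.946 to 1.10) included equality. FOSL1 was thus nearly level between the lines, at 25.3 RPKM in SW480 and 25.1 RPKM in SW620, although it differed 2.07-fold between the hairpin groups.

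**Figure D4:**
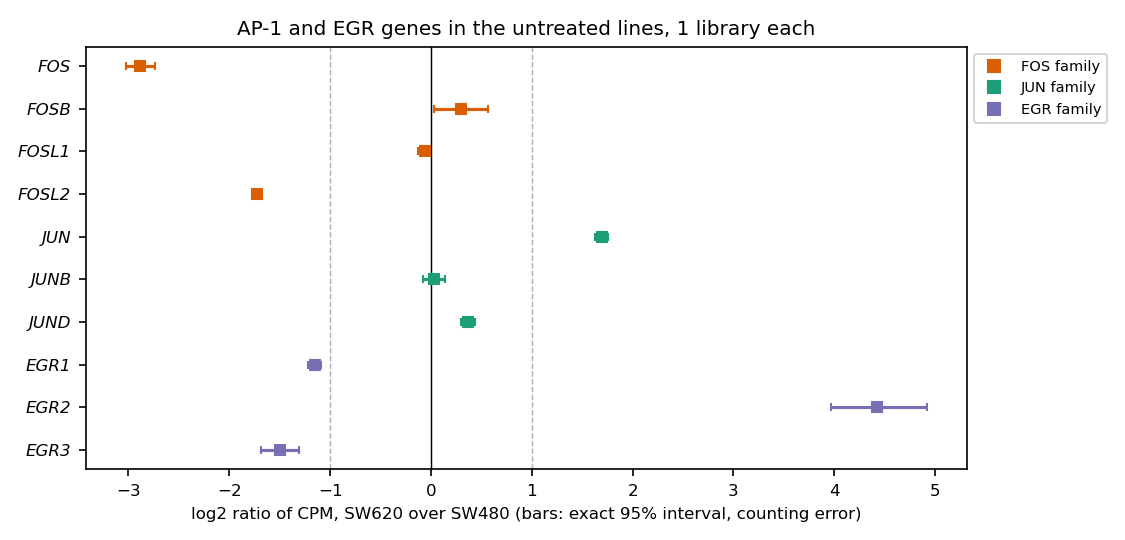
Log2 ratio of CPM, untreated SW620 over SW480 (1 library each, nothing added), with exact 95% intervals for counting error; dashed lines mark 2-fold. EGR2 and JUN lie to the right of the 2-fold line and FOS, FOSL2, EGR1 and EGR3 to the left.

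The lines differ in FOXA2 as well, with 4.50 CPM in SW480 and 81.0 CPM in SW620. FOS, FOSL2, EGR1 and EGR3 were higher both in SW480 than in SW620 and in shFOXA2 than in shNC, that is, on the side with less FOXA2 each time. EGR2 was not: it was lower in SW480 and rose in shFOXA2. FOSB went the same way as EGR2, but differed only 1.23-fold between the lines (1.02 to 1.48, counting error only). JUN and JUND were lower on the side with less FOXA2 in both settings. In untreated SW620, however, JUND lay inside the shFOXA2 range and below all shNC libraries, as given above. JUN differed 3.23-fold between the lines and 1.12-fold between the hairpin groups, and JUND 1.29-fold and 1.73-fold. FOSL1 and JUNB were near equal between the lines. The lines differ in much besides FOXA2, with 1 library each, and no test links the comparisons.

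Genes around these factors were counted by role from the same edgeR fit. The counts below stand beside 19.2% of all tested genes called higher and 19.8% called lower. Of 20 genes for upstream kinases and SRF-type factors, 1 rose and 6 fell, with a median log2 fold change of 0.04 beside 0.01 over all genes tested. SRF, which binds the CArG box shown above for EGR1 and EGR2, fell from 61.3 ± 2.48 to 24.6 ± 1.83 CPM (n = 3 each), or by -1.31 on the log2 scale (SE 0.07, edgeR adjusted p = 9.71e-19). Its value was 59.9, 64.2 and 59.9 CPM in shNC and 25.3, 22.5 and 26.0 CPM in shFOXA2, so SRF was lower in the libraries in which EGR1, EGR2 and FOS were higher. The SRF coactivator gene MKL2 (-0.35) and the JUN kinase gene MAPK9 (-0.25) also fell, and the ERK-activated kinase gene RPS6KA3 (0.18) rose. ELK1 and MAPK3, which carry the ERK signal to SRF sites, did not pass, with log2 fold changes of 0.03 and 0.06.

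Among other basic leucine zipper genes that can pair with AP-1 proteins, 2 of 10 tested rose and 3 fell (median -0.12). Over all tested genes, 19.2% rose and 19.8% fell. ATF7 (0.25) rose, and BATF (-0.66) and MAFK (-0.19) fell. Of the EGR relatives and corepressors EGR4, WT1, NAB1 and NAB2, edgeR called 0 of 4, where 9820 of 16100 tested genes were not called. Of these 4, 0 had an unadjusted p under 0.05, and 0 were called by DESeq2 or limma-voom. NAB2, an EGR target that represses EGR proteins in turn, had a log2 fold change of 0.21 (adjusted p = 0.173).

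Of 20 tested genes in a list of other immediate early genes, 7 rose and 2 fell (median 0.17). The matricellular gene CYR61 rose from 3.29 ± 1.04 to 10.7 ± 1.28 CPM, or by 1.68 on the log2 scale (adjusted p = 8.36e-10). The synaptic immediate early gene ARC (0.97) and the EGF receptor ligand HBEGF (0.44) also rose, and ETS2 (-0.50) fell. The remaining 11 genes did not pass.

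In the list of AP-1 target genes, 8 of 17 tested rose and 1 fell, with a median of 0.38. The hyaluronan receptor CD44 rose from 17.7 ± 1.02 to 40.9 ± 2.45 CPM, or by 1.21 on the log2 scale (edgeR adjusted p = 1.50e-15). The cortical linker EZR (0.58) also rose, while cyclin D1, CCND1, fell from 651 ± 28.6 to 454 ± 19.2 CPM (-0.52). Without shFOXA2 replicate 1, 3 genes of this list were called lower in place of 1. Of 12 tested EGR1 target genes, 6 rose and 3 fell (median 0.15). PDGFB, a platelet-derived growth factor chain, rose from 26.3 ± 2.56 to 48.1 ± 3.08 CPM (0.87, adjusted p = 4.00e-12), and FASLG (1.36), tissue factor F3 (0.99) and THBS1 (0.42) rose as well. IGF2, a growth factor of fetal tissue, fell from 4.59, 2.92 and 2.85 CPM to 1.67, 0.951 and 1.30 CPM (-1.35, adjusted p = 0.00014).

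**Figure D5:**
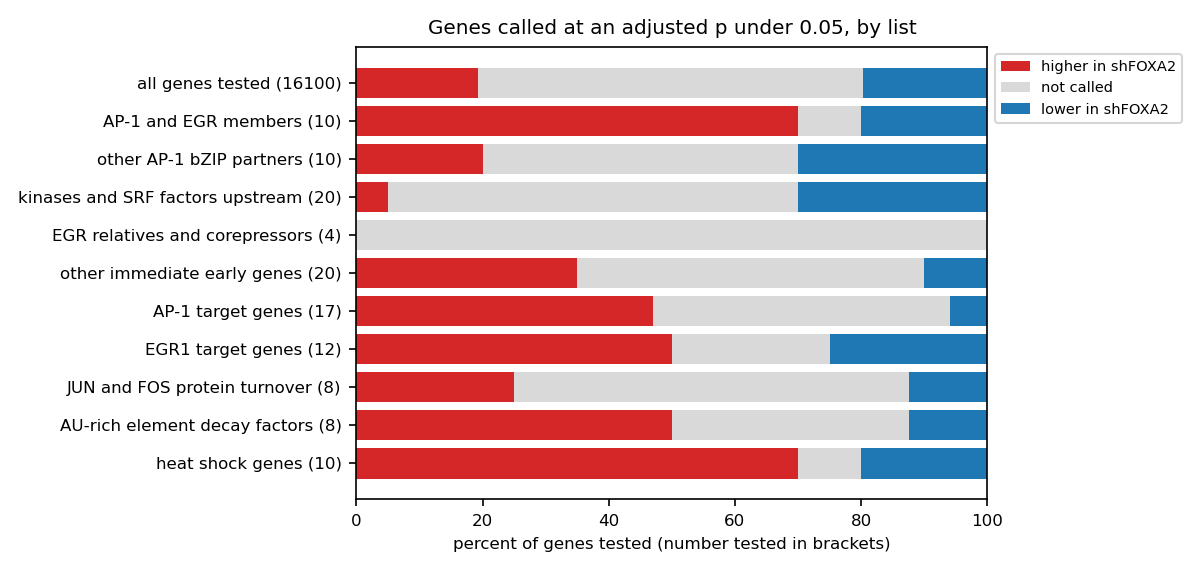
Percent of tested genes in each list called higher (red), called lower (blue) or not called (grey) in shFOXA2 at an adjusted p under 0.05 by edgeR, with the number tested in brackets. Of all 16100 genes 19.2% were higher and 19.8% lower, against 7 and 2 of the 10 members and 8 and 1 of 17 AP-1 target genes.

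Messages of AP-1 genes are short-lived and are cleared through AU-rich elements. Of 8 listed genes for factors that bind such elements or act in message silencing, 4 rose and 1 fell (median 0.25). The list does not separate factors that clear messages from factors that do not. TNRC6A, a scaffold of microRNA silencing, rose from 84.1 ± 3.78 to 136 ± 3.41 CPM (0.70, adjusted p = 5.05e-16). The decay factors ZFP36L1 (0.58) and ZFP36L2 (0.35) rose, and TIA1 (-0.26) fell. Of 8 genes for ubiquitin ligases that turn over JUN and FOS proteins, 2 rose and 1 fell (median -0.06): UBR1 (0.18) and ITCH (0.13) rose and RBX1 (-0.38) fell. Without shFOXA2 replicate 1, 1 of these 8 was called higher. Heat shock genes, which respond to stress and handling, had 7 of 10 higher and 2 lower (median 0.26). BAG3 (0.54) and HSPA8 (0.36) rose, and HSPB1 (-0.68) and DNAJB1 (-0.30) fell. These stress genes moved in the same libraries as the FOS and EGR genes, and their part in the result was not tested.

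Some of the surrounding genes also stood far apart between the untreated lines. ELK3, an SRF partner, was 7.82-fold higher in SW480 (7.30 to 8.40). The JUN kinase gene MAPK8 was 2.96-fold higher in SW620 (2.83 to 3.10). Among zipper genes, MAF was 28.4-fold higher in SW480 (17.7 to 48.4) and JDP2, an AP-1 repressor, 5.13-fold higher (4.55 to 5.80). NAB2, the EGR corepressor, was 2.38-fold higher in SW480 (2.24 to 2.53), as were EGR1 and EGR3, whereas WT1 was 2.27-fold higher in SW620 (2.06 to 2.50). CYR61 was 24.3-fold higher in SW480 (19.9 to 29.96), and NR4A2 (7.83-fold) and TNFAIP3 (5.05-fold) were higher in SW620. AP-1 targets went both ways, with CD44 8.98-fold higher in SW480 (8.61 to 9.37), the chemokine gene IL8 29.2-fold higher in SW620 (26.1 to 32.7) and MMP7 at 2 counts in SW480 against 2477 in SW620 (902-fold, 249 to 7453). Of EGR1 targets, THBS1 was 17.95-fold higher in SW620 (16.96 to 19.0), and IGF2 (14.6-fold) and ICAM1 (7.49-fold) were higher in SW480.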

How the data were processed

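Each library had 1 deposited table of raw counts, a length and RPKM for 42713 genes. The submitters' processing notes name HOMER and hg19 without their roles. Which aligner, counting tool and annotation were used is not given there or in the labels. The authors' RPKM values equal count over listed length and table total within 1e-04 for 100% of genes above 20 counts. A symbol's entry with the highest summed count was used.

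Counts of shFOXA2 and shNC (3 each) were compared with the edgeR 4.0.16 quasi-likelihood test (TMM, filterByExpr, robust, two-sided; R 4.3.3), adjusted by Benjamini-Hochberg over all genes, called at 0.05. SE is the log2 fold change over the square root of F. CPM uses TMM-scaled totals, set separately for untreated and hairpin libraries; 3 counts are 0.0313 to 0.401 CPM. Untreated lines used log2 CPM ratios with 1 CPM added. The fit was tested on simulated data. Alternatives used DESeq2 1.42.0 and limma 3.58.1; ratios and plots used Python 3.11.15, scipy 1.17.1 and matplotlib 3.10.9. Gene locations are GENCODE release 29 (GRCh38), another build than hg19, and promoters are from RefSeq (GRCh38.p14). No promoter window of EGR3 or FOSL1 was searched.

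Members, lists and tests were chosen with earlier results of these data known. The rule for named genes took all members; per other list the up to 4 called genes with the lowest p, and the up to 3 furthest apart between the lines with at least 100 counts and 2-fold; FOXA2; and genes overlapping a member. ELK1, MAPK3, PTPRC, GJA1, PDGFRB, CTGF, COL1A1, LUM, DCN, LYZ and CD14 were named after their values were seen. Some genes that this rule takes are not reported here.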

Additional observations from a re-analysis of the deposited data

How the results depend on the processing

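Over scaling, filter, test, threshold, repeated symbols, the replicate block and each hairpin library left out, no member changed direction in the hairpin comparison. FOS, FOSL1, FOSL2, EGR1, EGR2, JUN and JUND stayed called in every such setting. Members called higher numbered 5 to 7 and members called lower 2 to 3 with each library left out in turn. FOSB also missed a threshold of 0.01 (adjusted p = 0.0207). With a replicate block, 7 members were called higher and 2 lower, as without it, and 3022 and 3117 of all genes. Same-numbered libraries did not deviate together across genes (correlations of -0.0044, -0.0468 and -0.0051). Whether they share more than a number was not tested. Between the lines, a 4-fold threshold left 1 member higher in SW620 (EGR2) and 1 higher in SW480 (FOS). With no CPM added, 3418 of 21343 genes passed 2-fold toward SW620 and 3310 toward SW480, against 1706 and 1889 with 1 CPM added. In the hairpin libraries, EGR3 (33 to 65 counts), FOSB (60 to 166 counts) and FOS (68 to 176 counts) had the lowest minimum counts.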

Other observations

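The values here were picked after they were seen. ZFP36, an immediate early gene whose product clears AU-rich messages, had 33.3 CPM in shFOXA2 replicate 1, 12.1 and 13.3 CPM in replicates 2 and 3, and 7.98 to 9.31 CPM in shNC. Its log2 fold change of 1.22 was not called (adjusted p = 0.142). ELK4, an SRF partner, had 133 CPM in the same library, 80.5 and 76.5 CPM in the other shFOXA2 libraries and 51.6 to 55.2 CPM in shNC (log2 fold change 0.86, adjusted p = 0.0711). Within the shFOXA2 group, FOSL1 was lowest in that library, at 151 CPM, and FOS highest, at 14.7 CPM. Urokinase PLAU and its receptor PLAUR, AP-1 targets that act together in matrix breakdown, both rose with the FOXA2 hairpin. PLAU had 5.60, 4.46 and 3.66 CPM in shNC and 10.8, 13.04 and 12.1 CPM in shFOXA2 (log2 fold change 1.38, adjusted p = 3.19e-09). PLAUR had 8.72, 7.77 and 6.43 CPM in shNC and 18.4, 16.2 and 19.1 CPM in shFOXA2 (log2 fold change 1.23, adjusted p = 8.64e-11).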
